A study of Mus musculus with 11 samples.

Results

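The 9 genes Il34, Csf1, Bmp7, Tgfb1, Tgfb2, Tgfb3, Itgb6, Itgb8 and Itgav encode growth factors, differentiation factors and integrin subunits through which an epithelium supports Langerhans cells (LCs). They were chosen by name from the table of normalized counts, where all 9 had values in every mouse, among 19170 genes with values and 55414 genes listed. All 9 exceeded a mean of 10 normalized counts. The samples were gingival epithelium of 11 langerin-DTR mice, 1 library per mouse, collected at 8 weeks of age. All mice, controls included, carried the diphtheria toxin receptor under the control of langerin, so that diphtheria toxin (DT) kills any langerin-expressing cell and is not restricted to LCs. The PBS group held 5 mice injected with PBS and the DT group held 6 mice injected with DT, each time at 17, 24 and 31 days of age. In the design of the study the LCs had weeks to return between the last injection and collection, so the comparison is of an adult epithelium after an early LC loss and not of an epithelium without LCs. The question addressed here is whether the transcripts of the niche signals differed between the groups.

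LCs are antigen-presenting cells that live within stratified epithelia and depend on signals from the surrounding keratinocytes. Interleukin 34 (encoded by Il34) and colony stimulating factor 1 (Csf1) are alternative ligands of the receptor Csf1r, and the former is the ligand best known for maintaining LCs in the epidermis. Bone morphogenetic protein 7 (Bmp7) and transforming growth factor beta (TGF-β) direct precursors towards LC differentiation and residence. TGF-β is secreted in a latent form, held by its own propeptide. The integrins made of the αv chain (Itgav) with the β6 chain (Itgb6) or the β8 chain (Itgb8) release or expose the active factor by binding the tripeptide arginine-glycine-aspartate (RGD) in the propeptide.

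The coding bases around the RGD codons are shown because they separate the TGF-β isoforms on which these integrins can act from the isoform that lacks the site. They were read 5′ to 3′ on the coding strand from GENCODE release 21 transcripts (GRCm38). For each gene the transcript with the longest complete coding sequence was taken. Residue and exon numbers are those of that transcript and can differ in other splice forms. Capitals mark the RGD codons in Tgfb1 and Tgfb3 and, in Tgfb2, the codons that align with those of Tgfb1.
Tgfb1: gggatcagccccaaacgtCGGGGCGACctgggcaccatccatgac
Tgfb3: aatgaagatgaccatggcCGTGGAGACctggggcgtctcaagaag
Tgfb2: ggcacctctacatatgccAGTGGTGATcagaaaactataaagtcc
The Tgfb1 stretch lies on chromosome 7 between 25696995 and 25697168 on the plus strand, crosses from exon 4 to exon 5 of 7, and holds RGD at residues 244 to 246 of 390. The Tgfb3 stretch lies in exon 5 of 7 on chromosome 12 from 86062147 to 86062191 on the minus strand, with RGD at residues 261 to 263 of 412. The Tgfb2 stretch lies in exon 6 of 8 on chromosome 1 from 186630735 to 186630779 on the minus strand, and the aligned residues 289 to 291 of 442 read serine-glycine-aspartate. No RGD occurred anywhere in the Tgfb2 protein. The letters RGD were found in 1562 of 21504 mouse proteins (7.26%), so the match by itself is a description of sequence and not of activity. Over aligned residues the isoforms were 49.5% identical between Tgfb1 and Tgfb2, 50.3% between Tgfb1 and Tgfb3 and 58.5% between Tgfb2 and Tgfb3. The chains Itgb6 and Itgb8 were 38.2% identical, and the growth factors Il34 and Csf1, which share a receptor, were 22.2% identical.

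Of the 9 genes, 0 passed the threshold of the comparison between DT and PBS, which was an adjusted p under 0.1 in limma with Benjamini-Hochberg adjustment over all genes. Among all genes, 107 of 19170 passed (0.558%), 60 higher and 47 lower in DT. At an unadjusted p under 0.05 the count was 1 of 9, Bmp7, beside 2204 genes or 11.5% of the table. The groups had overlapping values for all 9 genes, while 2.11% of genes that averaged 10 or more (285 of 13477) had none. The log2 fold change was positive for 3 genes and negative for 6, with a median of -0.08 beside -0.01 over all genes tested. With all 11 mice the 95% intervals reached from a 0.540-fold level for Tgfb3 at the lowest to a 1.37-fold level for Il34 at the highest. On the log2 scale these bounds were -0.89 and 0.46, and larger changes lay outside the intervals of this fit only. Without PBS 3 and PBS 5, described next, the log2 intervals reached further, to -0.97 for Itgb8 and 0.79 for Il34.

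The libraries PBS 3 and PBS 5 stood apart from the other PBS libraries and bear on several of the 9 genes. On the first principal component, which held 36.0% of the variance of the 500 most variable genes, they lay at 17.2 and 20.9, beside -13.0 to -11.9 for the other 3 PBS mice and -9.09 to 10.5 for the DT mice. The summed level of 11 LC marker genes was 5078 and 4018 normalized counts in PBS 3 and PBS 5, 1992 to 2592 in the other PBS mice and 1392 to 2916 in the DT mice. Cd207, which encodes langerin, was detected in every library, with 32.2 and 43.0 normalized counts in PBS 3 and PBS 5, 10.0 to 18.5 in the other PBS mice and 15.8 to 21.6 in the DT mice. The pair also had the highest PBS sums of the macrophage, T cell, neutrophil, junctional and skeletal muscle marker lists given below. For macrophages these were 336 and 305, beside 179 to 220 in the other PBS mice. For junctional cells they were 2495 and 3064, beside 1182 to 1798. The sums of the remaining lists were not higher in both, and LC markers alone did not set the pair apart. Of the 11 LC markers 0 passed the threshold and all 11 had negative log2 fold changes, with a median of -0.44. The values of each niche gene are therefore given with and without this pair of libraries. The pair was picked for its position on the first component. That component had an r of 0.825 with Il34, 0.725 with Csf1 and 0.699 with Tgfb1. It had -0.659 with Itgb6, -0.648 with Itgav and -0.562 with Tgfb2, and weaker values with the other genes. Leaving out the highest or lowest PBS mice of a gene moves its difference by construction. Changes without the pair are thus a description, and their intervals and p-values ignore this choice.

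**Figure D1:**
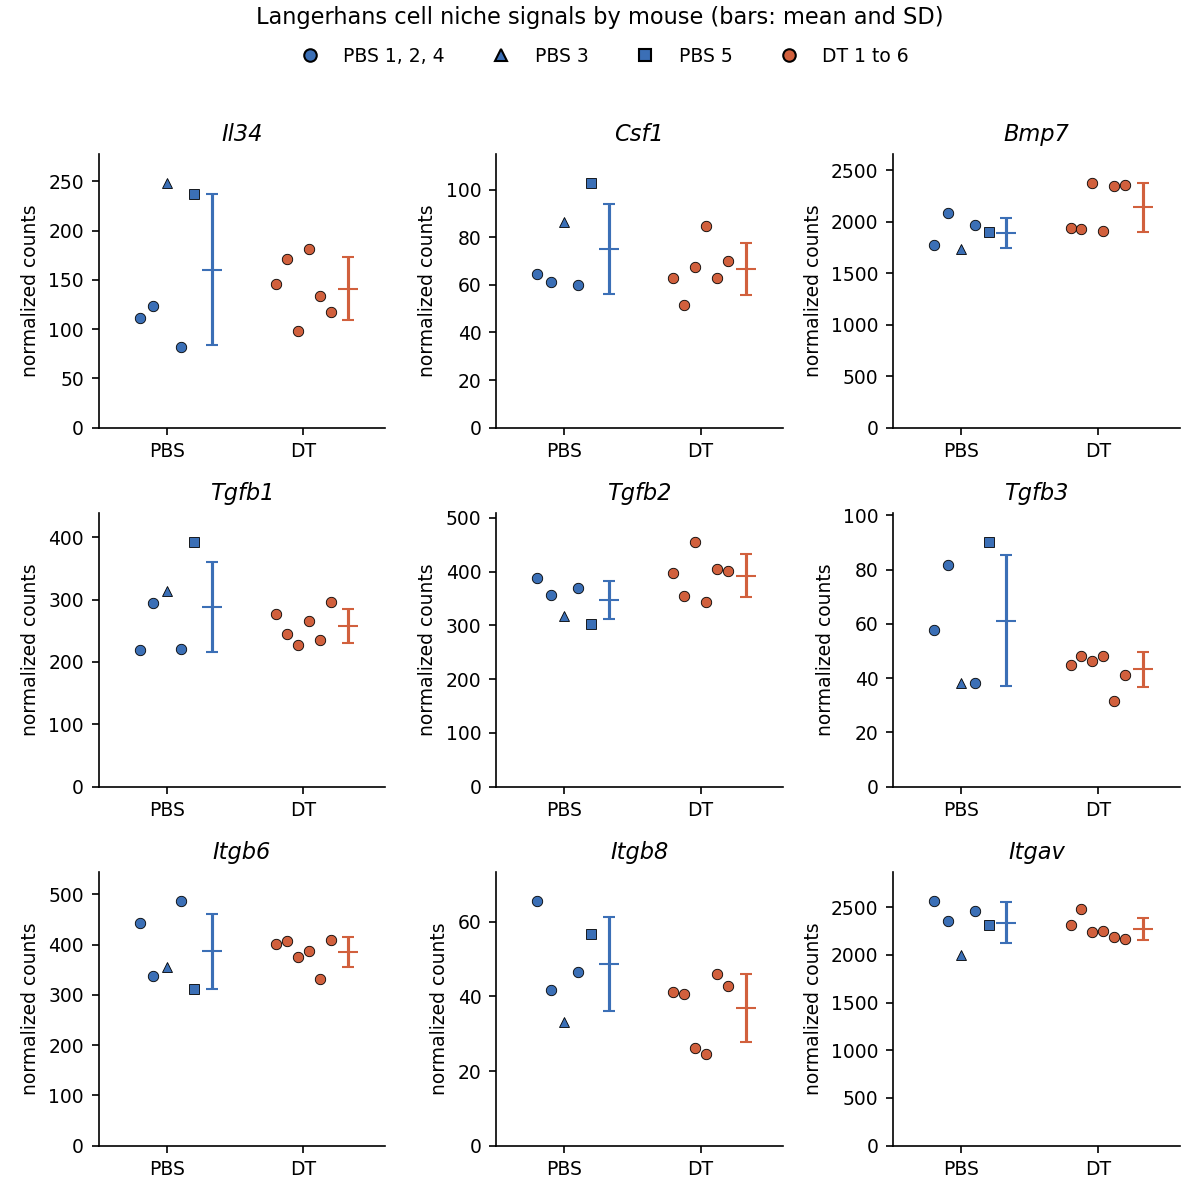
Normalized counts (vertical axes, from 0) of the 9 genes in each PBS and DT mouse, with the mean and SD of each group as bars; a triangle marks PBS 3 and a square PBS 5. The groups overlap in every panel, and PBS 3 and PBS 5 hold between them the highest and second highest level of Il34, Csf1 and Tgfb1.

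Il34 (chromosome 8, 110741829 to 110805924) had 111, 123, 248, 82.0 and 237 normalized counts in PBS mice 1 to 5. In the 6 DT mice it ranged from 97.7 to 181 with a median of 140. The DT range lay within the PBS range, and the PBS group split into PBS 3 and PBS 5, both above every DT mouse, and 3 mice at or below 123. The means were 160 ± 76.8 (SD, n = 5) in PBS and 141 ± 31.9 (SD, n = 6) in DT. The log2 fold change was -0.08 (SE 0.25, 95% interval -0.62 to 0.46, limma adjusted p = 0.938). Without PBS 3 and PBS 5 it was 0.41 (SE 0.18, 95% interval 0.02 to 0.79), with an adjusted p of 0.202 over all genes, so the sign of the Il34 difference depended on these mice. Leaving out a single mouse was enough, since it was 0.11 without PBS 3, 0.094 without PBS 5 and 0.019 without DT 3. The part that LC number, or any other feature of these libraries, has in the level of Il34 was not tested.

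Csf1 (chromosome 3, 107741048 to 107760469) was the lower of the CSF1R ligands. Its values were 64.5, 61.2, 86.5, 60.1 and 103 normalized counts in PBS mice 1 to 5 and 51.5 to 84.8 in DT mice, with a DT median of 65.3. Again PBS 5 and PBS 3 were the highest of the 11 mice, and the remaining PBS mice lay inside the DT range. The means were 75.0 ± 18.9 (SD, n = 5) and 66.6 ± 10.9 (SD, n = 6), a log2 fold change of -0.15 (SE 0.16, limma adjusted p = 0.780). It turned to 0.09 (SE 0.15) without the pair.

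The log2 ratio of Il34 to Csf1 within a mouse was 0.98 ± 0.41 (SD, n = 5) in PBS and 1.06 ± 0.41 (SD, n = 6) in DT. They differed by 0.07, less than the spread in either group (two-sided exact permutation test over 462 divisions of the mice, p = 0.758, also 0.758 after adjustment over 4 ratios). In normalized counts Il34 was 1.98 times Csf1 in PBS and 2.08 times in DT. Per kilobase of exon, a scale that holds only where reads cover whole transcripts, the gap was wider, because the Csf1 exons cover 5281 bases and the Il34 exons 1959: the mean level over 11 mice was 76.5 normalized counts per kilobase for Il34 and 13.3 for Csf1. These sums of a tissue cannot tell fewer cells of a type from less RNA per cell.

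Bmp7 (chromosome 2, 172868012 to 172940321) was the most abundant of the 9 genes per length. It had 1771, 2085, 1736, 1967 and 1900.2 normalized counts in PBS mice 1 to 5, and 1908 to 2378 in DT mice with a median of 2144. The DT mice fell into DT 3, DT 5 and DT 6, which exceeded all PBS mice, and DT 1, DT 2 and DT 4, which lay inside the PBS range. All 6 DT mice were above the PBS mean. The means were 1892 ± 143 (SD, n = 5) and 2143 ± 239 (SD, n = 6), a 1.13-fold difference with a 95% interval of 1.01 to 1.26. On the log2 scale this was 0.18 (SE 0.07), with an unadjusted p of 0.0325 in limma and an adjusted p of 0.375, so the difference did not pass over all genes. Without PBS 3 and PBS 5 it was 0.14 (SE 0.08, limma adjusted p = 0.358).

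Tgfb2 (chromosome 1, 186622792 to 186705989), the isoform without the RGD codons shown above, had the same fold change as Bmp7. Its PBS values were 388, 357, 317, 370 and 303 normalized counts, and its DT values 344 to 455 with a median of 399. Here PBS 3 and PBS 5 were the lowest of all mice, and 4 of 6 DT mice lay above every PBS mouse. The means were 347 ± 35.8 (SD, n = 5) and 392 ± 40.1 (SD, n = 6), a log2 fold change of 0.18 (SE 0.08) that did not pass the threshold (limma, unadjusted p = 0.0536, adjusted p = 0.438). Without PBS 3 and PBS 5 the log2 fold change was 0.07 (SE 0.08).

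Tgfb1 (chromosome 7, 25687002 to 25705077), the isoform that LCs are best known to require, moved the other way between the PBS libraries. Its PBS values were 218, 294, 314, 220.4 and 392 normalized counts, and its DT values 227 to 297 with a median of 256. The highest and second highest were PBS 5 and PBS 3, and PBS 1 and PBS 4 lay below every DT mouse. The means were 288 ± 72.5 (SD, n = 5) and 258 ± 26.8 (SD, n = 6), a log2 fold change of -0.13 (SE 0.13, limma adjusted p = 0.761). Without PBS 3 and PBS 5 it was 0.08 (SE 0.11), of opposite sign.

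Tgfb3 (chromosome 12, 86056745 to 86079041) was the least abundant of the TGF-β isoforms. It had 57.7, 81.6, 38.2, 38.2 and 90.2 normalized counts in PBS and 31.4 to 48.3 in DT, with a DT median of 45.5. All 6 DT mice lay below the PBS mean and median, yet PBS 3 and PBS 4 were as low as the DT mice. The means were 61.2 ± 24.1 (SD, n = 5) and 43.3 ± 6.42 (SD, n = 6), a 0.751-fold level with a 95% interval of 0.540 to 1.04. The log2 fold change of -0.41 (SE 0.22) did not pass the threshold (limma, unadjusted p = 0.0842, adjusted p = 0.498) and was -0.39 (SE 0.22) without PBS 3 and PBS 5. With 32 to 86 reads per library, counting error alone would give a coefficient of variation of 13.9%, and the observed values were 39.4% in PBS and 14.8% in DT.

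Within each mouse the mix of TGF-β isoforms was compared by ratios to Tgfb2. The log2 ratio of Tgfb3 to Tgfb2 was -2.73, -2.11, -3.02, -3.24 and -1.74 in PBS mice 1 to 5 and -3.64 to -2.80 in DT. All 6 DT mice were below the PBS mean of -2.57, and the difference of -0.59 had an exact permutation p of 0.0714 (two-sided, adjusted p = 0.286 over 4 ratios). The ratio of Tgfb1 to Tgfb2 changed from -0.30 ± 0.50 (SD, n = 5) to -0.61 ± 0.24 (SD, n = 6), a difference of -0.31 with p = 0.214 in the same exact test (adjusted p = 0.286). It depended on PBS 3 and PBS 5, without which the difference was 0.01. As shares of the summed level per length, Tgfb2 held 45.0% ± 8.36 (SD, n = 5) in PBS and 51.4% ± 4.05 (SD, n = 6) in DT. Tgfb1 held 41.9% ± 6.97 and 38.8% ± 3.48, and Tgfb3 held 13.1% ± 3.87 and 9.75% ± 1.56. These shares rest on the exon length chosen and on reads that cover whole transcripts. With the longest transcript as the length, Tgfb1 was at 105 normalized counts per kilobase, above Tgfb2 at 72.7. The order of these isoforms is therefore not settled.

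**Figure D2:**
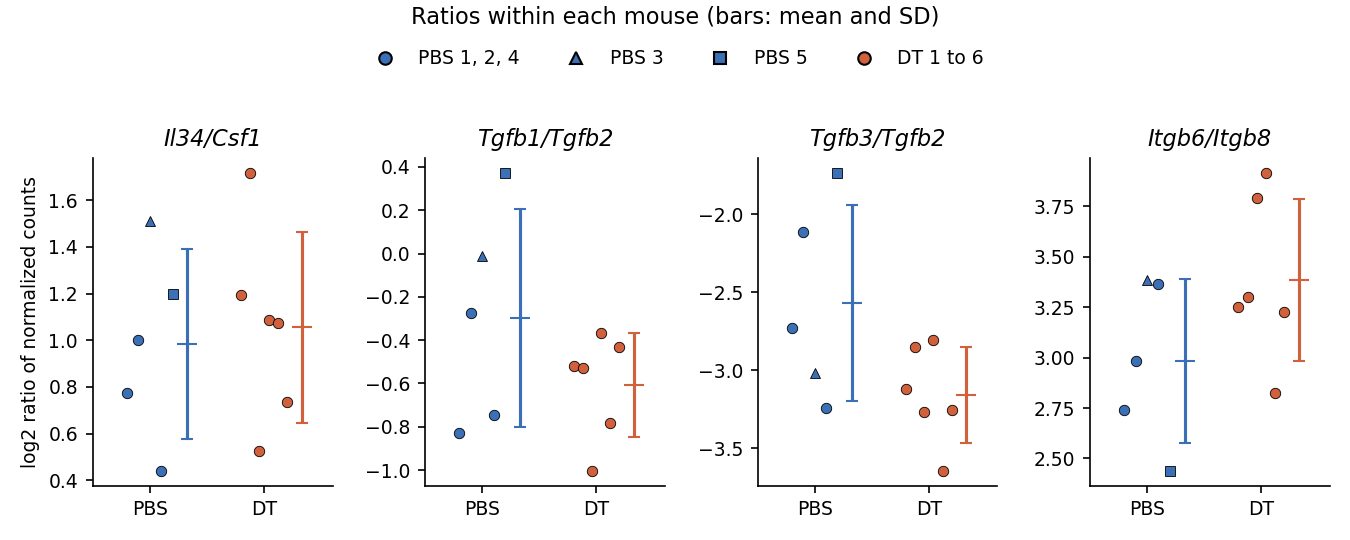
Log2 ratios of normalized counts within each mouse (vertical axes), with the mean and SD per group as bars; a triangle marks PBS 3 and a square PBS 5. The DT and PBS mice overlap in all 4 ratios, and the lowest Tgfb3 to Tgfb2 ratio, -3.64, is in a DT mouse.

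Of the integrin chains that act on latent TGF-β, Itgav and Itgb6 had fold changes near 1 with all mice. Itgb8 had a lower and imprecise level in DT that did not pass. Itgav (chromosome 2, 83724397 to 83806916), the common αv chain, had 2567, 2353, 1996, 2456 and 2309 normalized counts in PBS and 2166 to 2480.5 in DT, with a DT median of 2245. The lowest value was that of PBS 3 and the highest that of PBS 1, so the DT range lay within the PBS range. The means were 2336 ± 215 (SD, n = 5) and 2273 ± 115 (SD, n = 6). With all mice the log2 fold change of -0.04 (SE 0.06, limma adjusted p = 0.870) had the narrowest interval of the 9 genes, from -0.17 to 0.09. Without PBS 3 and PBS 5 the log2 fold change of Itgav was -0.11 (SE 0.05, interval -0.23 to -0.0012). That interval held only negative values, but the difference did not pass the threshold (limma adjusted p = 0.226).

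Itgb6 (chromosome 2, 60598292 to 60722643), the epithelial partner chain, had 444, 337, 356, 487 and 312 normalized counts in PBS and 333 to 410 in DT, with a DT median of 394. The PBS mice were spread to both sides of the DT mice, with PBS 1 and PBS 4 above all of them and PBS 5 below. The means were 387 ± 74.8 (SD, n = 5) and 386 ± 29.1 (SD, n = 6), a log2 fold change of 0.01 (SE 0.10, limma adjusted p = 0.982). It was -0.12 (SE 0.10) without PBS 3 and PBS 5, and it fell below 0 when any of 6 single mice was left out, so it has no stable sign.

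Itgb8 (chromosome 12, 119158022 to 119238802), the alternative partner chain, was the lowest of the 9 genes. Its PBS values were 65.6, 41.8, 33.2, 46.4 and 56.7 normalized counts, and its DT values 24.7 to 46.1 with a median of 40.9. All 6 DT mice were below the PBS mean and median, and DT 3 and DT 4 lay below every PBS mouse. The means were 48.7 ± 12.7 (SD, n = 5) and 36.9 ± 9.13 (SD, n = 6), a 0.762-fold level with a 95% interval of 0.558 to 1.04. The log2 fold change of -0.39 (SE 0.21) did not pass the threshold (limma, unadjusted p = 0.0843, adjusted p = 0.498), and without PBS 3 and PBS 5 it was -0.48 (SE 0.23). The libraries held only 23 to 58 reads of this gene, which limits the precision of these values. The log2 ratio of Itgb6 to Itgb8 was 2.98 ± 0.41 (SD, n = 5) in PBS and 3.38 ± 0.40 (SD, n = 6) in DT, above the PBS mean in 5 of 6 DT mice, with an exact permutation p of 0.145 (two-sided, adjusted p = 0.286).

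**Figure D3:**
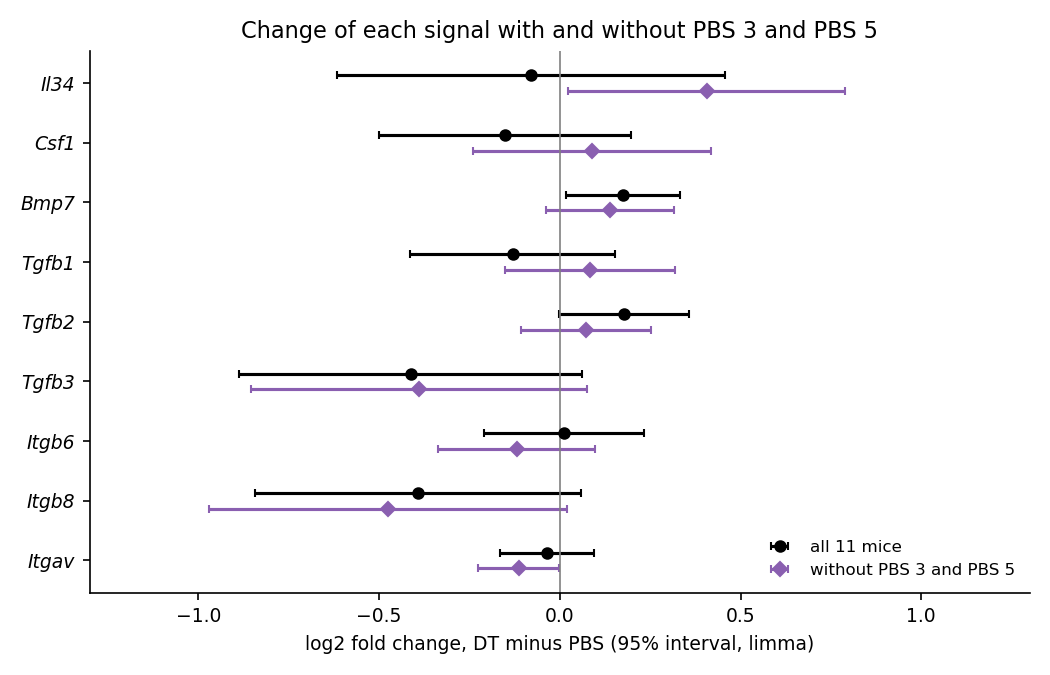
Log2 fold change of each gene, DT minus PBS (horizontal axis), with 95% intervals from limma, for all 11 mice (circles) and without PBS 3 and PBS 5 (diamonds). The values for Il34, Csf1 and Tgfb1 move from below 0 to above 0 when the pair is left out, while Bmp7 stays near 0.18 and 0.14 and Itgb8 near -0.39 and -0.48.

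Levels were compared between the genes per kilobase of annotated exon, over all 11 mice. The sources differ on the library type, and if the reads came from 3′ ends only, division by exon length would not give comparable levels. Bmp7 was highest at 505 ± 57.8 (SD, n = 11) normalized counts per kilobase, followed by Itgav at 214 ± 15.05, and each was above the next gene in all 11 mice. Il34 at 76.5 ± 27.8 and Tgfb2 at 64.2 ± 7.49 were not separated, since Il34 was the higher in 6 of 11 mice. Itgb6 at 54.3 ± 7.25 and Tgfb1 at 53.8 ± 10.3 were not separated either, with Itgb6 higher in 7 of 11, whereas Tgfb2 exceeded Itgb6 in 10 of 11. Tgfb3 at 15.2 ± 5.45 and Csf1 at 13.3 ± 2.82 overlapped, and Itgb8 at 3.83 ± 1.08 was below Csf1 in all mice. With the longest transcript as the length, Bmp7, Itgav and Itgb8 kept their places, and Tgfb1 rose to rank 3 at 105 because its longest transcript covers 2573 of 5042 exonic bases. The order in the middle therefore rests on the length chosen.

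**Figure D4:**
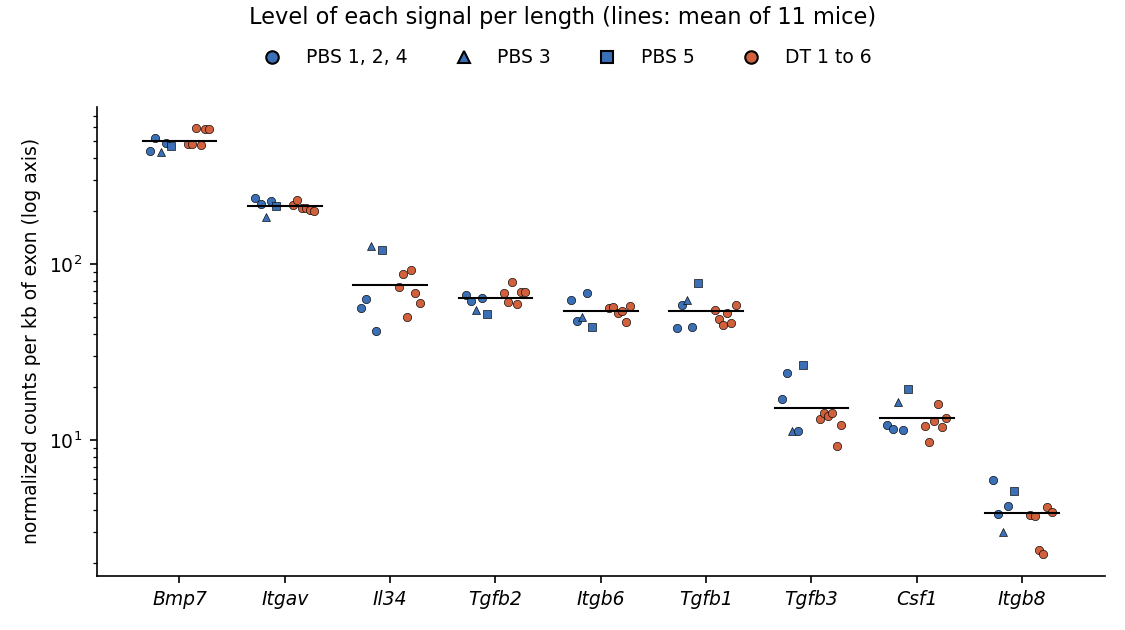
Normalized counts per kilobase of exon (vertical log axis) of the 9 genes in order of their mean over 11 mice (lines), with each PBS mouse in blue and each DT mouse in orange; a triangle marks PBS 3 and a square PBS 5. The means run from 505 for Bmp7 to 3.83 for Itgb8, and neighbours such as Il34 and Tgfb2 overlap.

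The spread of Il34 and Csf1 between PBS mice depended on PBS 3 and PBS 5. Il34 had a coefficient of variation of 47.9% in PBS, which was 5.87 times the counting error of its reads, and of 20.2% without that pair, beside 22.6% in DT. Csf1 fell from 25.2% to 3.69% without the pair, beside 16.4% in DT. Tgfb3 had 39.4%, and 36.7% without the pair, beside 14.8% in DT. Bmp7 had 7.57% in PBS, 8.19% without the pair and 11.2% in DT. With all mice the coefficient was lower in DT than in PBS for 8 of the 9 genes, and without PBS 3 and PBS 5 for 3 of them (Tgfb1, Tgfb3 and Itgb6). These counts were taken after the values were seen and were not tested.

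Correlations across the 11 mice were computed for all 36 pairs of the 9 genes, and 0 passed an adjusted p of 0.05. The strongest was Il34 with Tgfb2, of opposite direction, with a Pearson r of -0.775 (permutation p = 0.00538) and a Spearman rho of -0.718 (permutation p = 0.0165). Il34 and Tgfb1 had an r of 0.730 (permutation p = 0.0101) and a rho of 0.709 (permutation p = 0.0186), and Bmp7 and Tgfb2 an r of 0.695 (permutation p = 0.0179) and a rho of 0.782 (permutation p = 0.00704). After Benjamini-Hochberg adjustment over the 36 pairs the smallest p was 0.136 for Pearson and 0.223 for Spearman. The mice farthest from the median of Il34 were PBS 3 and PBS 5, and without them r fell to -0.495 for Il34 with Tgfb2 (permutation p = 0.177) and to 0.436 for Il34 with Tgfb1 (permutation p = 0.240), so both relations rest on this pair. For Bmp7 with Tgfb2 the mice farthest out were DT 3 and DT 6, without which r was 0.483. Taken as deviations from the group means, only Il34 with Tgfb2 passed, at an r of -0.876 (permutation, adjusted p = 0.0227). That r includes PBS 3 and PBS 5, the highest mice for Il34 and the lowest for Tgfb2. The permutations ran freely over the 11 deviations, without allowance for the group means removed, so the p may be too small.

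The genes whose log2 values followed each member most closely over the 11 mice were read from 13476 other genes and are given as a description. Il34 was followed by Cyb5a with an r of 0.972 and Litaf with 0.965. For Csf1 they were Rmi2 (0.932) and Shisa5 (0.887), and for Bmp7 they were Gm10129 (0.941) and Tmem45a (0.935). For Tgfb1 they were Cd80 (0.928), a costimulatory molecule of antigen-presenting cells at a mean of only 13.1 normalized counts, and Micall2 (0.919). Tgfb2 was followed by Usp10 (0.950) and Hus1 (0.929), and Tgfb3 by D5Ertd579e (0.891) and Mmp14 (0.885), the latter a membrane-bound matrix metalloproteinase listed among the activators of latent TGF-β below. For Itgb6 they were Gon4l (0.947) and Mcm3ap (0.938), for Itgb8 Vps13a (0.929), and for Itgav Uhmk1 (0.922) and Olfr539 (0.904), an olfactory receptor gene at a mean of only 11.1 normalized counts. The points share library, depth and the position of PBS 3 and PBS 5.

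The genes around the niche signals were followed in 7 lists of 114 genes, of which 111 had values. Past the threshold were 0 of the 111, and at an unadjusted p under 0.05 were 14 (12.6%), beside 11.5% of all genes tested. Bmp5, Acvr1c and Tnfsf11 had no value.

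Among the receptors and other growth factors, 0 of 11 passed and 9 had negative log2 fold changes, with a median of -0.32 beside -0.01 over all genes. Csf1r, the receptor of both Il34 and Csf1 and also one of the 11 LC markers, had 109.8 ± 30.02 (SD, n = 5) normalized counts in PBS and 79.6 ± 20.1 (SD, n = 6) in DT, a log2 fold change of -0.46 (SE 0.20, limma adjusted p = 0.397). Csf2rb, the common chain of the receptors for GM-CSF and related cytokines, had 38.9 ± 10.4 (SD, n = 5) and 19.6 ± 7.77 (SD, n = 6), a log2 fold change of -1.02 (SE 0.29, limma adjusted p = 0.196). Its close copy Csf2rb2 had -0.72 (SE 0.28, limma adjusted p = 0.331), and reads of these near-identical genes may be split between them. In PBS 3 and PBS 5 these receptors were higher than in the other PBS mice. Csf1r had 146 and 130.1 normalized counts in the pair (others 79.2 to 115). Csf2rb had 47.3 and 51.4 (others 26.4 to 37.9), and Csf2rb2 had 50.3 and 48.3 (others 21.4 to 29.4). The summed LC markers were also higher in the pair, as were the macrophage, neutrophil and junctional sums. Other genes of the receptor and growth factor list went the other way. PBS 3 and PBS 5 had 67.4 and 76.6 of Csf2ra (others 124 to 142), and 53.3 and 46.2 of Flt3l (others 84.9 to 106). Without the pair the log2 fold change was -0.21 (SE 0.21) for Csf1r, -0.77 (SE 0.33) for Csf2rb and -0.32 (SE 0.28) for Csf2rb2, and the median of the list stayed at -0.32. Sdc1, a syndecan of epithelial cells that can bind the Il34 protein, was the most abundant gene of the list, at 4191 normalized counts per kilobase, and had a log2 fold change of 0.07 (SE 0.06).

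Among 16 other BMP ligands and antagonists with values, 0 passed and 9 were positive. Bmp2 at 282 normalized counts per kilobase, Bmp6 at 43.0 and Bmp4 at 21.2 were all below Bmp7 at 505. Twsg1, which encodes a secreted modulator of BMP signals, had 4096 ± 150.5 (SD, n = 5) normalized counts in PBS and 4570.1 ± 200.2 (SD, n = 6) in DT. Its groups did not overlap, with PBS at most 4231 and DT at least 4393, and the log2 fold change was 0.16 (SE 0.05, limma adjusted p = 0.210). Bambi, a decoy receptor of the pathway, had 335 ± 30.3 (SD, n = 5) and 389.9 ± 43.2 (SD, n = 6), a log2 fold change of 0.22 (SE 0.08, limma adjusted p = 0.322).

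Among the 12 receptors of TGF-β and BMP with values 0 passed. Tgfbr1 and Tgfbr2, the signalling receptors of TGF-β, had 83.3 and 87.3 normalized counts per kilobase, and log2 fold changes of -0.03 (SE 0.06) and 0.04 (SE 0.08). The smallest p belonged to Bmpr2, a type II receptor of BMPs, at 4167 ± 428 (SD, n = 5) normalized counts in PBS and 3597 ± 168 (SD, n = 6) in DT, a log2 fold change of -0.21 (SE 0.06, limma adjusted p = 0.219). Acvr2b, an activin receptor that also binds BMPs, followed with -0.42 (SE 0.17, limma adjusted p = 0.361). Bmp7 and Bmpr2 thus had fold changes of opposite sign, neither past the threshold.

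Of the 19 carriers and activators of latent TGF-β 0 passed. Ltbp4 at 378 and Ltbp3 at 116 normalized counts per kilobase were the most abundant of the latent TGF-β binding proteins, and Lrrc32, which encodes the membrane anchor GARP, was at 110. Plau, the urokinase plasminogen activator, had 1044 ± 136 (SD, n = 5) normalized counts in PBS and 1204 ± 65.7 (SD, n = 6) in DT, a log2 fold change of 0.21 (SE 0.07, limma adjusted p = 0.275). Htra1, a secreted serine protease, had 0.15 (SE 0.07, limma adjusted p = 0.446).

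Of 18 other integrin subunits and integrin activators 0 passed. The αv chain has further partners, and per length these were at 1243 normalized counts per kilobase for Itgb5 and 518 for Itgb1, beside 54.3 for Itgb6, 3.83 for Itgb8 and 2.31 for Itgb3. The smallest p belonged to Itga2, a collagen-binding chain, with a log2 fold change of -0.19 (SE 0.09, limma adjusted p = 0.434). Itgae, which encodes CD103 of epithelial lymphocytes and some dendritic cells, had -0.70 (SE 0.33, limma adjusted p = 0.436).

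The SMAD factors and targets, 20 genes, held 0 that passed, with 10 positive and 10 negative. Skil, a SMAD repressor, had a log2 fold change of -0.14 (SE 0.06, limma adjusted p = 0.350), and Smad7, the inhibitory SMAD, had 0.15 (SE 0.07, limma adjusted p = 0.458). Id1, a BMP target at 2684 normalized counts per kilobase, had -0.02 (SE 0.09). Among 15 other epithelial signals to LCs with values, 0 passed. Jag1, a Notch ligand, had 2629.7 ± 128 (SD, n = 5) normalized counts in PBS and 2942 ± 129.5 (SD, n = 6) in DT, a log2 fold change of 0.16 (SE 0.05, limma adjusted p = 0.215), and Dll1, another Notch ligand, had 0.30 (SE 0.11, limma adjusted p = 0.286).

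**Figure D5:**
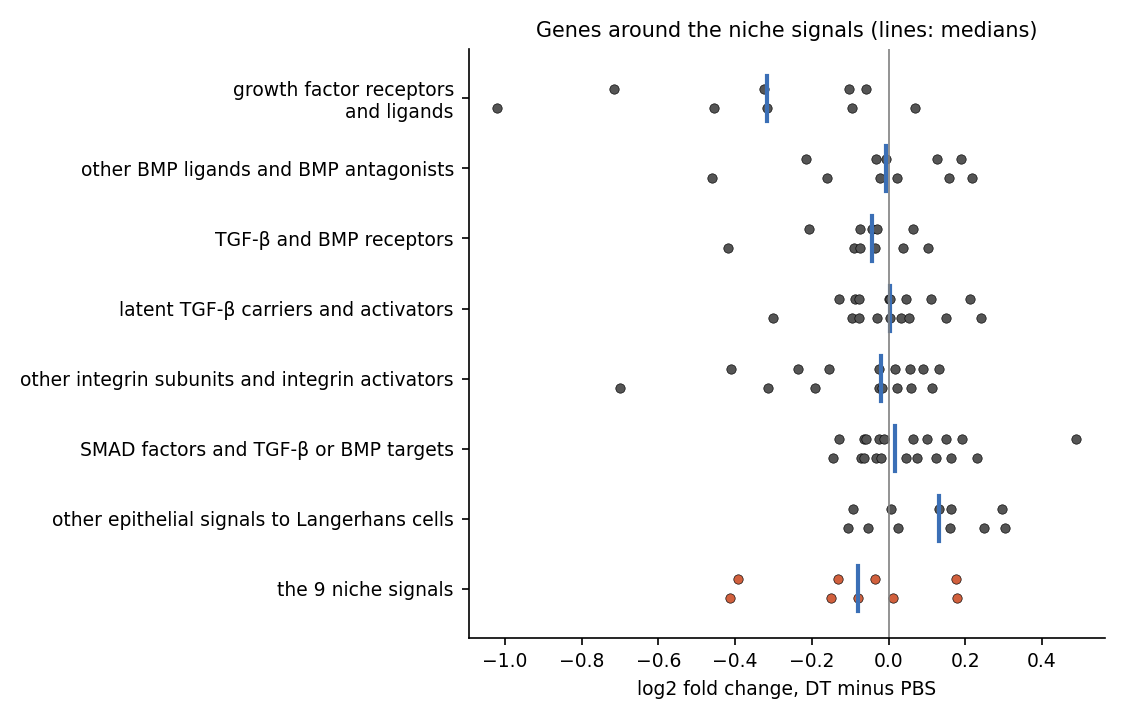
Log2 fold changes, DT minus PBS (horizontal axis), of the 95 listed genes that averaged 10 or more normalized counts, by list, and of the 9 niche signals (orange); blue lines are medians. Most points lie near 0, and the growth factor receptors and ligands have the lowest median, -0.32, with Csf2rb farthest at -1.02.

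Without PBS 3 and PBS 5 the number of genes called among all genes rose from 107 to 1967 (10.3%). Then 11 of the 111 listed genes passed (9.91%), a share near that of all genes, while the count among the 9 signals remained 0. Those listed genes were Bmpr2 (log2 fold change -0.30, adjusted p = 0.00950), Plau (0.32, adjusted p = 0.00950), Itga2 (-0.33), Cdkn2b (0.23), Il1a (0.43), Skil (-0.21), Flt3l (-0.70), Bambi (0.30), Acvr2b (-0.58), Htra1 (0.23) and Csf2ra (-0.44). These p-values are from limma with the same adjustment. The pair was left out for its position in these same data, and the PBS mice that remain lay close together on the first component. Those remaining PBS mice all lay below every DT mouse on it. The p-values of this fit take no account of that choice and may be too small. Each of the 11 listed genes had the same sign with all mice, and nothing particular to the lists is read from them.

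The other cell types a gingival epithelial sample can hold were read from marker lists, and 0 of the listed genes with values passed in any of them. The basal list (7 genes, highest Krt14 at 200039 normalized counts, lowest Itga6 at 6084), the suprabasal list (8 genes, Krt13 at 892698 to Ivl at 138) and the junctional list (5 with values, Odam at 1571 to Krt18 at 38.8) were all detected. The lists for fibroblasts (6, Dcn at 1220.1 to Lum at 3.45), macrophages (5, Cd68 at 156 to Mrc1 at 2.12), endothelial cells (5, Pecam1 at 67.4 to Emcn at 1.54) and neutrophils (2 with values, Cxcr2 at 58.8 and Csf3r at 4.24) had lower top genes than the basal and suprabasal lists, although Dcn lay above Cd74, the highest LC marker, and near Odam. Those for T cells (4 with values, Cd3e at 7.65 to Cd8a at 2.25), melanocytes (2 with values, Pmel at 6.54 and Dct at 4.65) and skeletal muscle (5, Myh1 at 26.9 to Myh4 at 0.962) had no gene above 26.9. The summed fibroblast list was 1252 to 1449.9 in PBS and 1109 to 1594 in DT, and the junctional list 1182 to 3064 and 766 to 2311. In the LC list the means ran from 1120 for Cd74 to 19.0 for Irf8. Of 11 immediate early genes, which respond fast to handling and stress, 9 were higher in DT past the threshold, with summed levels of 23908 to 63504 in PBS and 66895 to 107566 in DT. Their part in the values of the niche genes was not tested. The depth was 17667565 to 22180195 reads on genes per PBS mouse and 17509327 to 24325514 per DT mouse.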

How the data were processed

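Libraries for RNA-seq were made from the gingival epithelium of 11 langerin-DTR mice, 5 given PBS and 6 given DT. The labels name a stranded polyA kit, whereas the methods process reads by the guide of QuantSeq, a 3′ end protocol, and this conflict bears on every level per kilobase. The authors trimmed, aligned and counted the reads per gene and divided them by a DESeq2 size factor per mouse. The submitters' notes name cutadapt 2.10, TopHat2 2.1.1, HTSeq 2.01 and DESeq2 1.36.0, and give GRCm39, whereas the methods of the study give GRCm38. The deposited values are these normalized counts, which are neither raw counts nor scaled to a fixed total. Of 55414 genes listed, 36244 hold no value and 19170 were tested. The depth was read from the step between values, of which 100% were whole numbers of reads in each mouse (tolerance 0.02 reads). Count tests on such recovered reads were planned and not run. The reason was a check of the unit that did not accept the columns as counts, although the values were whole numbers of reads.

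Differences were tested with limma 3.58.1 (R 4.3.3, intensity trend, no covariate) on the log2 of the normalized count plus a pseudocount of 1. P-values were adjusted by Benjamini and Hochberg's method over 19170 genes, and genes were called at an adjusted p under 0.1. This scale understates changes of low genes. Nothing in the labels gives litters or batches, so p-values measure the spread between these mice. Within-mouse ratios were compared by two-sided exact permutation over 462 divisions, whose smallest p is 0.00216, and correlations by 100000 permutations, in Python 3.11.15. The procedure was tested on simulated data. The deviations of samples with the same number had correlations of mixed sign (0.09, 0.17, -0.23, -0.21 and 0.32). No label says that a number marks a pair, so no pairing was used. The tube label of PBS 5 carries the number 6, so its partner among the DT mice is uncertain, and it was set beside DT 5 here. Positions, exon lengths and sequences came from GENCODE release 21 on GRCm38, which matched 19117 of the 19170 identifiers (99.7%). Alternatives were other pseudocounts, a mean of at least 10 normalized counts, TMM scaling, quantile normalization, array weights, a replicate block, longest transcripts and leaving out mice.

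The members, gene lists and named genes were chosen with earlier results of these data known. Named were all members, for each the 2 genes with the highest correlation, for each pathway list any gene past the threshold and the 2 with the smallest p, for each marker list the highest and lowest mean, and Cd207 and Csf1r. Of the genes so chosen 1 is not reported here. Beyond this rule, genes named for their role or level (Sdc1, Bmp2, Bmp4, Bmp6, Tgfbr1, Tgfbr2, Ltbp3, Ltbp4, Lrrc32, Itgb1, Itgb3, Itgb5, Id1) and the genes called without PBS 3 and PBS 5 were chosen after their values were seen.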

Additional observations from a re-analysis of the deposited data

How the results depend on the processing

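Under every alternative run, and with each mouse left out in turn, 0 of the 9 niche genes passed the threshold, and the lowest adjusted p of any of them in limma was 0.202. Leaving out PBS 3 and PBS 5 together changed most: the log2 fold change turned to 0.41 for Il34, 0.088 for Csf1, 0.083 for Tgfb1 and -0.12 for Itgb6, the log2 ratio of Tgfb1 to Tgfb2 turned to 0.0096, calls in the pathway lists rose from 0 to 11 and calls over all genes from 107 to 1967. Array weights gave 0.047 for Il34, -0.0043 for Itgb6 and 189 calls over all genes. With single mice left out, Il34 ranged from -0.29 (without PBS 4) to 0.11 (without PBS 3), Itgb6 from -0.061 (without PBS 5) to 0.10 (without PBS 4), and the Il34 to Csf1 ratio from -0.064 (without PBS 4; -0.060 without DT 2) to 0.20 (without PBS 3). Calls in the pathway lists ranged from 0 to 2 (Bmpr2 and Plau, without PBS 3), and calls over all genes from 27 (without DT 5) to 259 (without PBS 5), with 126 and 82 without PBS 3 and DT 2 the nearest to 107. The replicate block gave -0.0065 for Itgb6 and 35 calls over all genes, with 0 among the niche genes. As no label says that the numbers pair the mice, and PBS 5 may carry the number 6, this block is a check only. For ratios the paired exact test on 5 pairs cannot go below 0.0625. Deviations from group means gave 1 correlated pair in place of 0. With the longest transcript as length, the levels per kilobase were 326 for Itgav, 105 for Tgfb1, 80.4 for Itgb6, 72.7 for Tgfb2, 16.9 for Csf1 and 5.04 for Itgb8. In each case the cause was not tested, apart from the lengths, which set the levels by construction. Tests of recovered reads with the planned count tools were not run. The low read numbers of Itgb8, Tgfb3 and Csf1 limit what can be seen for them.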
